A study of Homo sapiens with 32 samples.

Results

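HEK293 cells incubated with 4-thiouracil for 15 min were compared with HEK293 cells incubated for 5 min, across all genes. The libraries were chosen by the incubation time given in the column headers, which selected 16 of the 32 libraries of the series. Each of these times has 2 biological replicates, called cultures here, and the 4 libraries of a culture (2 cDNA preparations, each tagmented into 2 libraries) were summed, so that 2 cultures stood against 2. HEK293 is a human embryonic kidney line transformed with adenovirus DNA, and all groups were the same line with no other treatment named. The labels give the molecule as polyA RNA and refer to published protocols for transient transcriptome sequencing and for tagged reverse transcription of the 5′ ends of transcripts. They do not say whether the tagged RNA was separated from the rest, what the 0 min cells received, or whether the replicates were grown separately, so the p-values measure the spread between these cultures.

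4-thiouracil is a uracil analogue whose sulfur atom lets RNA made during the incubation be told from older RNA. Where tagged RNA is isolated, a short pulse favours transcripts that are being made or have just been made, and a longer pulse lets more of them be completed and processed. Immediate-early genes are known to be transcribed within minutes of a stimulus without new protein synthesis, and many code for transcription factors with short-lived mRNAs. Replication-dependent histone genes are short genes without introns that are transcribed in S phase, and most of their mRNAs end in a stem-loop in place of a poly(A) tail.

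The 4 cultures held 776871 and 1298475 counts at 5 min and 1339808 and 1347710 at 15 min. Culture 1 at 5 min was therefore the shallowest of the series. Levels of single genes below are in CPM, counts set to a common library total, scaled by TMM, a factor that corrects for differences in library composition. Sums over lists are in CPM of the total, without that factor. The HEK293 label was set against marker genes: the intermediate filament gene VIM stood at 259 and 212 CPM at 5 min and at 257 and 243 CPM at 15 min. Of 12 HEK293 markers 11 were in the table and 8 had enough counts to test, while 3 did not. In the table, 1 marker had no count at 5 or 15 min. Whether these markers tell HEK293 from other lines was not tested. Of the markers of other cell types, all 10 lymphoid and myeloid markers together stood at 0.0 to 5.19 CPM of the total in each of the 8 cultures and all 8 cervical and keratinocyte markers at 0.0 to 3.91 CPM. The 9 fibroblast markers summed to 24.5 and 16.2 CPM of the total at 5 min and 27.6 and 16.3 CPM at 15 min. Of these, FBN1 had 17.7 and 12.01 TMM-scaled CPM and then 22.0 and 11.6 TMM-scaled CPM. The 15 erythroid and K562 markers summed to 169.9 and 127 CPM of the total at 5 min and 121 and 134 CPM at 15 min. Most of it came from TFRC, the transferrin receptor of dividing cells, at 152 and 111 TMM-scaled CPM and then 102 and 115 TMM-scaled CPM. Sum and single gene are on unlike scales, so their ratio is not the gene's share. In the erythroid list, 12 of 15 genes had no count at 5 or 15 min, and the globin gene HBA1 had 1 count at 5 min.

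Of 10439 genes tested, 108 rose from 5 to 15 min (1.03%) and 54 fell (0.517%). The rising genes changed more: 87 of the 108 rose by over 2-fold and 34 by over 4-fold, with a median log2 fold change of 1.55. Of the 54 falling genes, 12 fell by over 2-fold and 0 by over 4-fold, with a median of -0.79. In all 162 genes the cultures of one time lay entirely above those of the other, as they did in 44.9% of all genes tested, and the median over all genes tested was -0.003. The test was edgeR's quasi-likelihood F test with Benjamini-Hochberg adjustment, and levels of the called genes differed, with a median of 70.3 CPM for rising genes, 177 CPM for falling genes and 35.2 CPM for all genes tested.

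The count of falling genes rested on every culture. It was 6 and 19 without culture 1 or 2 at 5 min, 21 without culture 1 at 15 min and 0 without culture 2 at 15 min. The rising genes numbered 61 and 83 without culture 1 or 2 at 5 min, and 67 and 54 without culture 1 or 2 at 15 min. Scaling by total counts gave 138 higher and 36 lower.

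**Figure D1:**
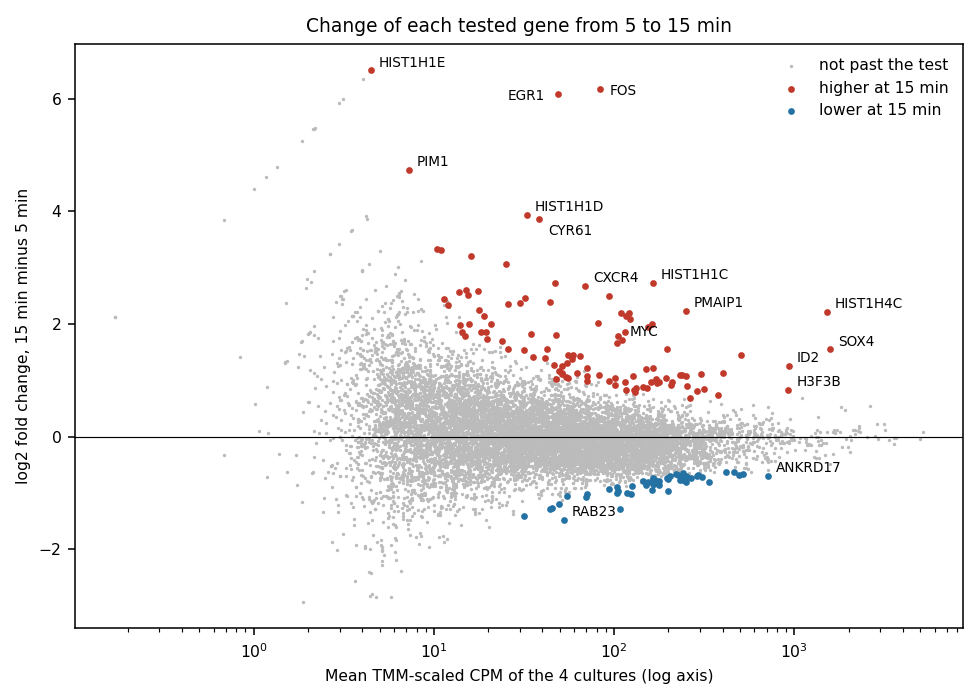
Each point is 1 of the 10439 tested genes, with its mean TMM-scaled CPM over the 4 cultures on a log axis and its fitted log2 fold change from 5 to 15 min. The 108 rising genes (red) reach up to 6.50, while the 54 falling genes (blue) lie no lower than -1.48. Points along the upper left edge are genes at or near 0 counts at 5 min, whose fitted changes are not bounds.

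Among genes with a mean of 10 CPM or more, the largest rises were those of the immediate-early transcription factors FOS and EGR1. FOS, which pairs with JUN proteins in the dimeric factor AP-1, stood at 0.0 and 3.53 CPM at 5 min and at 150.0 and 179.8 CPM at 15 min. The 2 cultures at 15 min were close to each other and far above both at 5 min. The log2 fold change was 6.17 (SE 0.42, adjusted p = 2.37e-12), from 5 counts over both cultures at 5 min to 495 at 15 min. EGR1, a zinc finger factor of the serum response, had 1.18 and 1.41 CPM at 5 min and 103 and 89.6 CPM at 15 min. Because it had only 3 counts at 5 min against 290 at 15 min, its ratio is given with a counting interval: 72.7 (exact 95% interval 24.6 to 355, counting error only). JUN, the other partner of AP-1, rose from 47.2 and 40.3 CPM to 184 and 212 CPM (log2 fold change 2.19, SE 0.23, adjusted p = 4.3e-08).

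Both cultures at 0 min held more FOS and EGR1 than either at 5 min, and both at 30 min held more than either at 15 min. FOS was at 8.46 and 23.2 CPM at 0 min and at 665 and 545 CPM at 30 min. EGR1 was at 7.25 and 27.8 CPM at 0 min and at 360 and 231 CPM at 30 min. JUN was at 76.1 and 54.1 CPM at 0 min and at 485 and 348 CPM at 30 min, so that it too had its lowest level at 5 min. The comparisons of 5 min with 0 min and of 15 with 30 min share cultures with the comparison of 15 with 5 min, and their values are given side by side only.

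The AP-1 list (JUN, FOS and ATF3 relatives and small MAF partners) had 10 of 13 members tested, of which 3 rose, 0 fell and 7 did not pass, with a median log2 fold change of 1.36. Over all genes tested 1.03% rose and 0.517% fell, the shares against which this and the later counts of list members stand. Because the lists were written with earlier results of these data known, their shares and medians describe the members and test nothing. ATF3, a stress-induced member of the ATF family, rose from 8.26 and 18.4 CPM to 79.5 and 71.1 CPM (2.39, SE 0.32, adjusted p = 5.97e-06). FOSB was at 0 in both cultures at 5 min and at 7.11 and 1.37 CPM at 15 min, and did not pass the test (adjusted p = 0.152). JUNB had 2.36 and 2.12 CPM at 5 min and 6.47 and 6.84 CPM at 15 min (adjusted p = 0.483). The list's median was 2.16 without culture 1 at 5 min, 2.32 with the stricter low-count filter, 2.202 after thinning to equal depth and 2.09 with 1 library per cDNA.

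Among EGR, NR4A and IER genes, 8 of 11 were tested, 3 rose, 0 fell and 5 did not pass, with a median of 2.54. That median was 3.82 without culture 2 at 5 min and 2.03 after thinning to equal depth. IER2, a nuclear immediate-early protein, rose from 17.7 and 8.48 CPM to 84.0 and 77.3 CPM (2.72, SE 0.36, adjusted p = 4.89e-06). NR4A2, an orphan nuclear receptor, rose from 2.36 and 4.95 CPM to 15.5 and 25.3 CPM (2.34, SE 0.53, adjusted p = 0.0149). NR4A1 went from 2.36 and 0.0 CPM to 3.23 and 6.84 CPM without passing the test (adjusted p = 0.347), and NR4A3 from 0.0 and 1.41 CPM to 3.88 and 0.684 CPM (adjusted p = 0.669). At 30 min these receptors stood at 115 and 93.4 CPM for NR4A2, 76.3 and 43.0 CPM for NR4A1 and 63.1 and 54.1 CPM for NR4A3. Both 30 min cultures thus lay far above both 15 min cultures for each of the 3.

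The list of MAP kinase feedback genes codes for phosphatases and inhibitors that limit ERK, JNK and p38 signalling. Of its 17 members 13 were tested, 3 rose, 0 fell and 10 did not pass, with a median of 0.68. DUSP1, a nuclear phosphatase of MAP kinases, rose from 40.1 and 44.5 CPM to 219.8 and 158 CPM (2.15, SE 0.23, adjusted p = 6.26e-08). DUSP5, a nuclear phosphatase for ERK, rose from 0.0 and 7.77 CPM to 31.0 and 23.3 CPM (2.51, SE 0.57, adjusted p = 0.0149), and SPRY2, an inhibitor of receptor tyrosine kinase signalling, from 21.2 and 10.6 CPM to 55.0 and 51.3 CPM (1.82, SE 0.34, adjusted p = 0.00172). DUSP16, the tested member with the highest CPM, had 139 and 169 CPM at 5 min and 169 and 137 CPM at 15 min, with overlapping cultures (adjusted p = 0.984). SPRED2 had 76.7 and 65.7 CPM at 5 min and 42.0 and 29.4 CPM at 15 min, without passing the test (adjusted p = 0.0897).

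Summed over these 3 lists (41 genes), the level was 592 and 585 CPM of the total at 5 min and 1649 and 1461 CPM at 15 min. Both cultures at 15 min were above both at 5 min. The means were 588 ± 5.37 CPM at 5 min and 1555 ± 133 CPM at 15 min (SD, n = 2). The same sum was 262 and 358 CPM at 0 min and 4811 and 3689 CPM at 30 min. The 31 members tested had a median log2 fold change of 1.31, or 1.18 with members at 0 at 5 min set to their lower bound, against -0.003 for all genes tested. Because genes were kept for testing by their counts at all times, NR4A1 and NR4A3 were tested although low at 5 and 15 min. The part of this choice in the median was not tested. Of the 9 risers, FOS, EGR1, JUN, ATF3, IER2 and DUSP1 kept their call under all 13 alternatives, SPRY2 under 12, and NR4A2 and DUSP5 under 10. The 10 members not tested had 6 counts in all at 5 min and 36 at 15 min.

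**Figure D2:**
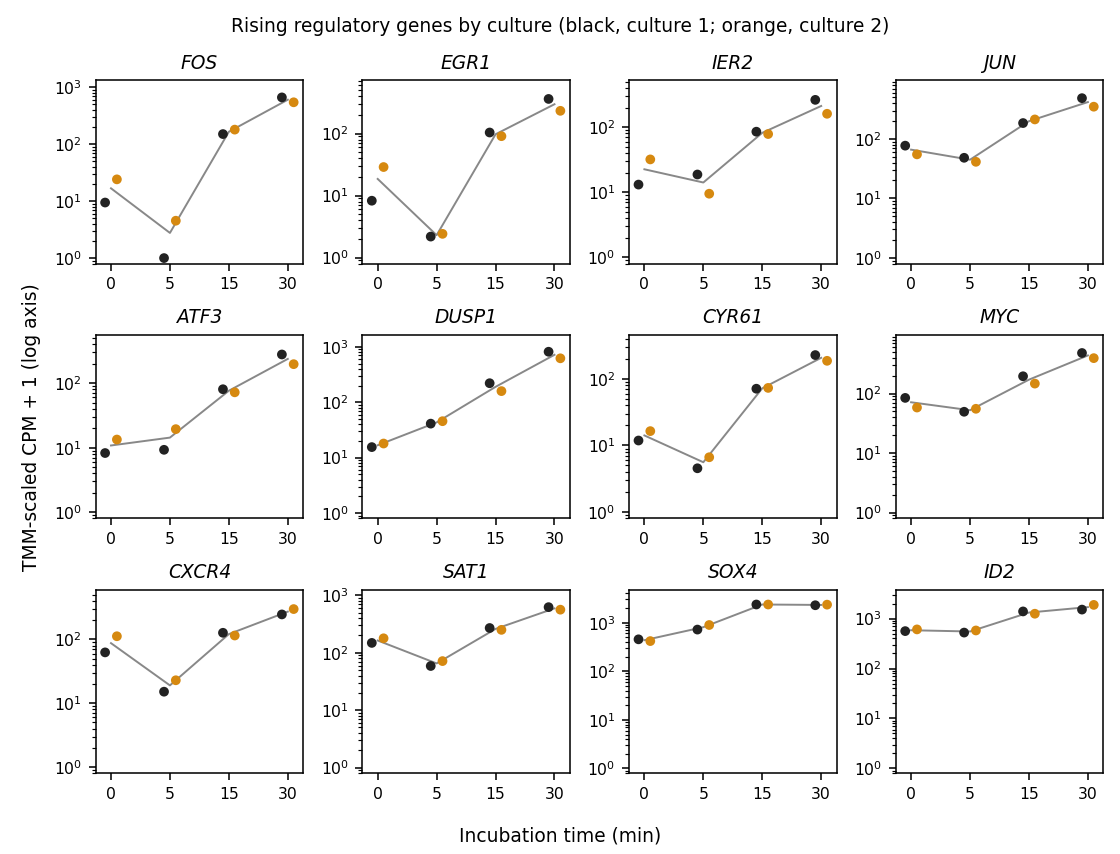
TMM-scaled CPM plus 1 on a log axis against incubation time for 12 rising regulatory genes, with 1 point per culture and a line through the mean of the 2 cultures. In each panel both 15 min cultures lie above both 5 min cultures, and FOS moves furthest, from 0.0 and 3.53 CPM to 150.0 and 179.8 CPM.

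The sequence before the start of 4 of these genes, FOS, EGR1, DUSP1 and JUN, is shown. Each of them kept its call under all 13 alternative settings. ATF3 and IER2 did so too and their windows are not shown, so the 4 were chosen by hand. The sequences are the 150 bases before the first listed start in RefSeq (GRCh38.p14), 5′ to 3′ on the gene's strand. Capitals mark motifs that were searched on both strands, and matches can overlap. The core of the cAMP response element was searched as TGACG. The TATA box was searched as TATAAA. The box bound by the factor NF-Y was searched as CCAAT, and the CArG box, bound by serum response factor, by its consensus.
FOS, chr14:75278678-75278827, plus strand: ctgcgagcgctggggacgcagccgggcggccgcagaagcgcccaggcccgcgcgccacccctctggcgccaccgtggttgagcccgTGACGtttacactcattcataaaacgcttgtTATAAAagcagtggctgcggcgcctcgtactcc
EGR1, chr5:138465329-138465478, plus strand: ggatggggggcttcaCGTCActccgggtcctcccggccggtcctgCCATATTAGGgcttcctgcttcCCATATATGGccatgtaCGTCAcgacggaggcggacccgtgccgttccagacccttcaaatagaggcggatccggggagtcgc
DUSP1, chr5:172771196-172771345, minus strand: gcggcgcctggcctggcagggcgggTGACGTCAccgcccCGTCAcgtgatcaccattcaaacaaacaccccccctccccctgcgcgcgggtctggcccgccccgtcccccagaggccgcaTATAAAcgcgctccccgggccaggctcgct
JUN, chr1:58784048-58784197, minus strand: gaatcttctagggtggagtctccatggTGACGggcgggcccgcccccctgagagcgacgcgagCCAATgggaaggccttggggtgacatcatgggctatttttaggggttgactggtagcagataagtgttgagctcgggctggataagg

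EGR1 held 2 CArG boxes in this window, from 105 to 96 and from 83 to 74 bases before its start, and 0.765% of all 27305 promoters of the RefSeq table held one in the same window on either strand. TGACG was found in all 4 windows, which were chosen by hand, against 15.9% of all promoters. In DUSP1 3 matches were found, of which 2 overlap in the full palindrome TGACGTCA. TATAAA stood from 33 to 28 bases before the start of FOS and from 30 to 25 bases before that of DUSP1, against 7.05% of all promoters. A match of letters describes the window and not a bound site. Only 79.8% of the genes tested had an entry in the promoter table, so that no count of motifs over the rising or falling genes is given.

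Targets of serum response factor and YAP, which include cytoskeletal and matricellular genes, had 17 of 22 members tested, of which 3 rose, 0 fell and 14 did not pass, with a median of 0.49. CYR61, a secreted matricellular protein, rose from 3.54 and 5.65 CPM to 70.5 and 72.5 CPM (3.86, SE 0.37, adjusted p = 8.3e-09). The related CTGF rose from 0.0 and 7.07 CPM to 22.0 and 31.5 CPM (2.60, SE 0.56, adjusted p = 0.00749). The actin genes did not pass the test in this step: ACTG1 had 903 and 792 CPM at 5 min and 1143 and 1563 CPM at 15 min (0.68, adjusted p = 0.075), and ACTB 440.2 and 398 CPM at 5 min and 502 and 670 CPM at 15 min (0.49, adjusted p = 0.241). With total counts as the scale, ACTG1 passed the test at 0.71.

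Of the 18 genes of the BMP, Notch and TGF-beta feedback list (ID, HES, HEY and SMAD), 15 were tested. Of these 5 rose, where 1.03% of all genes did, 0 fell and 10 did not pass, with a median of 0.11. That median was 0.28 without culture 1 at 5 min, 0.20 and 0.33 without culture 1 or 2 at 15 min, -0.07 with a replicate block and 0.33 after thinning. The risers all code for repressors of transcription or inhibitors of transcription factors. ID2, an inhibitor of basic helix-loop-helix factors, rose from 524 and 578 CPM to 1392 and 1252 CPM (1.26, SE 0.18, adjusted p = 2.92e-05). Its relative ID3 rose from 106 and 77.7 CPM to 209 and 205 CPM (1.20, SE 0.20, adjusted p = 0.000267), and ID4 from 30.7 and 31.8 CPM to 69.2 and 58.8 CPM (1.03, SE 0.28, adjusted p = 0.0471, kept under 4 of 13 alternatives). The Notch effectors HES1, from 307 and 234 CPM to 733 and 737 CPM (1.45, SE 0.20, adjusted p = 6.65e-06), and HEY1, from 49.6 and 55.1 CPM to 114 and 112 CPM (1.09, SE 0.22, adjusted p = 0.00316), rose as well. The inhibitory SMAD genes did not pass: SMAD7 had 109.8 and 82.0 CPM at 5 min and 80.8 and 71.8 CPM at 15 min (adjusted p = 0.65), and SMAD6 had 49.6 and 63.6 CPM and then 69.8 and 36.9 CPM (adjusted p = 0.931).

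Of the KLF transcription factors, 10 of 17 were tested, with a median of 1.09. KLF6 alone passed, where 1.03% of all genes rose, and went from 173.5 and 206 CPM to 477 and 348 CPM (1.11, SE 0.19, adjusted p = 0.0003). KLF12, the member with the highest CPM, had 849 and 848 CPM at 5 min and 749 and 631 CPM at 15 min (-0.30, adjusted p = 0.495). KLF11 had 5.90 and 14.8 CPM at 5 min and 37.5 and 25.3 CPM at 15 min (adjusted p = 0.134). The list's median was 0.07 with the stricter filter, 0.45 with 1 library per cDNA, 0.72 without culture 2 at 5 min and 0.34 without culture 1 at 15 min.

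The list of MYC, its dimerization partners and PIM kinases had 13 of 16 members tested, 2 of them higher, 0 lower and 11 not past the test, with a median of 0.16. Without culture 1 or 2 at 5 min the median was 0.44 or -0.05, without culture 1 or 2 at 15 min 0.24 or 0.10, and with the stricter filter 0.69. MYC, a transcription factor of growth, rose from 48.4 and 54.4 CPM to 194 and 146 CPM (1.71, SE 0.22, adjusted p = 3.77e-06). PIM1, a serine/threonine kinase, had 1 count over both cultures at 5 min and 43 at 15 min, a ratio of 32.3 (exact 95% interval 5.5 to 1310, counting error only), with an adjusted p of 0.00262. The MYC antagonist MGA had 112 and 123 CPM at 5 min and 111 and 91.0 CPM at 15 min, with no difference beyond the spread that the test could call (adjusted p = 0.722).

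In the BCL2 family, 12 of 17 members were tested, 1 rose, 0 fell and 11 did not pass, with a median of 0.38 (0.18 without culture 2 at 15 min). That gene, PMAIP1 (NOXA), a proapoptotic BH3-only protein, rose from 83.8 and 91.9 CPM to 429 and 399 CPM (2.23, SE 0.20, adjusted p = 1.42e-09). MCL1, the survival factor that NOXA binds, had 41.3 and 25.4 CPM at 5 min and 67.9 and 60.9 CPM at 15 min, with separate cultures but no call (1.00, SE 0.29, adjusted p = 0.0675). BCL2L11 had 160.5 and 150.5 CPM and then 142 and 132 CPM (adjusted p = 0.741). PMAIP1 also stands on the p53 target list, where 23 of 27 members were tested, 3 rose (PMAIP1, BTG2 and GADD45B), 0 fell and 20 did not pass, with a median of 0.32. BTG2, which recruits the deadenylase that shortens poly(A) tails, rose from 7.08 and 9.19 CPM to 38.1 and 48.6 CPM (2.36, SE 0.43, adjusted p = 0.000917). It was also the only riser of the 6 tested among 9 mRNA decay factors of the TTP and BTG/TOB families, whose median was 0.36. Without culture 1 or 2 at 5 min that median was 0.78 or 0.09, and without culture 1 or 2 at 15 min 0.12 or 0.63. GADD45B, a stress sensor of MAP kinase signalling, rose from 5.90 and 4.24 CPM to 25.9 and 34.2 CPM (2.59, SE 0.49, adjusted p = 0.00181). It counts as a p53 target here because the list holds it, and its link to p53 was not tested. The p53 target CDKN1A had 5.90 and 4.24 CPM at 5 min and 15.5 and 7.52 CPM at 15 min (adjusted p = 0.527), and MDM2 had 109 and 133.5 CPM and then 115 and 91.6 CPM (adjusted p = 0.694).

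Of the unfolded protein and integrated stress response list, 33 of 34 members were tested, 5 rose, 0 fell and 28 did not pass, with a median of 0.27 (0.47 and 0.56 without culture 1 or 2 at 5 min, 0.53 without culture 2 at 15 min). ATF4, the transcription factor of the integrated stress response, rose from 114.5 and 126.5 CPM to 215 and 257 CPM (0.96, SE 0.19, adjusted p = 0.0026). Its target DDIT3 (CHOP) rose from 34.2 and 26.9 CPM to 70.5 and 73.2 CPM (1.26, SE 0.27, adjusted p = 0.00792). HSPA5 (BiP), the main chaperone of the endoplasmic reticulum, rose from 147.5 and 141 CPM to 237 and 303 CPM (0.91, SE 0.19, adjusted p = 0.00479), and TRIB1, a pseudokinase, from 49.6 and 50.2 CPM to 175 and 139 CPM (1.65, SE 0.22, adjusted p = 4.89e-06). TRIB1 counts here because the list holds it, and its link to this response was not tested. ATF3, counted in the AP-1 list as well, was the other riser. Other chaperones of that compartment did not pass: HSP90B1 had 205 and 220.4 CPM at 5 min and 221 and 223 CPM at 15 min (adjusted p = 0.933), and PDIA6 had 328 and 293 CPM and then 253 and 291 CPM (adjusted p = 0.714).

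Of the heat shock list (chaperones and heat shock factors), 24 of 25 members were tested, 0 rose and 1 fell, with a median of -0.04 (-0.12 to 0.14 over the 13 alternatives). A count of 0 among 24 genes is near the 1.03% of all genes that rose. HSPA2, a member of the HSP70 family, had no count at 5 min and 13 at 15 min without passing the test (adjusted p = 0.167). HSP90AA1 had 1560.0 and 1563 CPM at 5 min and 1336 and 1535 CPM at 15 min (adjusted p = 0.845). The 1 that fell was HSF2, a heat shock transcription factor, from 168 and 158 CPM to 91.8 and 84.1 CPM (-0.89, SE 0.20, adjusted p = 0.0155). The NF-kB and cytokine list had 8 of 24 members tested and the interferon-stimulated list 8 of 21, with 0 higher and 0 lower in both.

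Other genes rose as much. SAT1, TXNIP and RGS2 below were chosen after their values were seen. CXCR4, the receptor of the chemokine CXCL12, rose from 14.2 and 21.9 CPM to 126 and 114 CPM (2.67, SE 0.29, adjusted p = 6.26e-08). SAT1, which acetylates spermidine and spermine, rose from 57.8 and 70.7 CPM to 269 and 249.6 CPM (1.99, SE 0.20, adjusted p = 2.12e-08), and TXNIP, an inhibitor of thioredoxin and of glucose uptake, from 28.3 and 47.3 CPM to 182 and 178 CPM (2.19, SE 0.24, adjusted p = 9.88e-08). SOX4, an HMG-box factor of progenitor cells and the only 1 of 2 tested SOXC genes to pass, rose from 720 and 894 CPM to 2364 and 2363 CPM (1.55, SE 0.19, adjusted p = 6.8e-07). SOX4 then held 2282 and 2348 CPM at 30 min, close to the 15 min cultures, whereas CXCR4 held 246 and 298 CPM, SAT1 622 and 561.9 CPM and TXNIP 238 and 263 CPM at 30 min. RGS2, an inhibitor of G protein signalling, rose from 10.6 and 9.19 CPM to 44.6 and 64.3 CPM (2.47, SE 0.37, adjusted p = 4.92e-05). RAI1, a nuclear chromatin-associated protein, rose from 2.36 and 1.41 CPM to 20.7 and 17.1 CPM (3.34, SE 0.77, adjusted p = 0.0155), and the noncoding RNA LINC00936 from 4.72 and 0.0 CPM to 23.3 and 15.7 CPM (3.32, SE 0.85, adjusted p = 0.0352). Both rest on 4 counts at 5 min. In the CREB and circadian list, 19 of 24 members were tested and BHLHE40, a repressor in the circadian clock, alone rose, from 23.6 and 21.9 CPM to 63.4 and 55.4 CPM (1.39, SE 0.31, adjusted p = 0.0106), while the list's median was 0.21 (-0.02 without culture 1 at 5 min and -0.18 without culture 1 at 15 min).

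The HOX and FOX genes were examined after their values were seen. Of 39 HOX genes, developmental transcription factors, 25 were tested, 3 rose and 0 fell, with a median of 0.53. HOXA9 rose from 44.9 and 45.9 CPM to 93.7 and 99.2 CPM (1.08, SE 0.24, adjusted p = 0.00906), HOXD11 from 36.6 and 36.0 CPM to 70.5 and 79.3 CPM (1.04, SE 0.26, adjusted p = 0.0315), and HOXA11 from 5.90 and 7.07 CPM to 16.8 and 29.4 CPM (1.79, SE 0.48, adjusted p = 0.0487). These calls held under 9, 7 and 5 of the 13 alternatives. Of 43 FOX (forkhead) genes 16 were tested, 1 rose and 1 (FOXJ3) fell. FOXC1 rose from 98.0 and 69.2 CPM to 177 and 166 CPM (1.07, SE 0.21, adjusted p = 0.00262). Of the ZNF zinc finger genes, a family of mostly KRAB-domain repressors, 314 of 509 were tested, 5 rose and 0 fell, which is 1.59% against 1.03% of all genes. Their median was 0.23 (0.39 without culture 2 at 5 min). The risers were ZNF525, ZNF426, ZNF3, ZNF429 and ZNF16. ZNF525 changed the most of the 5, from 2.36 and 4.95 CPM to 18.8 and 28.7 CPM (2.57, SE 0.65, adjusted p = 0.0294).

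Replication-dependent histone genes gave more calls than any other list examined. Of 60 core histone genes, 22 were tested, 11 rose, 0 fell and 11 did not pass. All 22 had a fitted change above 0, with a median log2 fold change of 1.98, against -0.003 for all genes tested, of which 49.7% were above 0. The 38 core histone genes not tested had 40 counts in all at 5 min and 143 at 15 min. Summed over the 60 genes, the level was 1062 and 1050 CPM of the total at 5 min and 4766 and 3795 CPM at 15 min, with 5598 and 6458 CPM at 0 min and 5536 and 5774 CPM at 30 min. The 5 min cultures were thus the lowest of all 4 times.

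HIST1H4C, an H4 gene that carried much of that sum, stood at 518 and 556 CPM at 5 min and at 2727 and 2280.0 CPM at 15 min (2.22, SE 0.21, adjusted p = 3.85e-09). HIST1H2AC, an H2A gene, rose from 54.3 and 70.7 CPM to 269.6 and 222 CPM (1.95, SE 0.24, adjusted p = 1.13e-06), and HIST1H2AM from 47.2 and 45.9 CPM to 201 and 195 CPM (2.09, SE 0.22, adjusted p = 3.23e-08). HIST1H3D, an H3 gene, rose from 29.5 and 33.9 CPM to 159.7 and 101 CPM (2.02, SE 0.28, adjusted p = 6.96e-06). HIST1H2BK, which is known also to give polyadenylated mRNA, rose less, from 171 and 115 CPM to 249.5 and 299 CPM (0.96, SE 0.20, adjusted p = 0.00449), but a difference between histone genes was not tested. The other core histone genes past the test were HIST2H2BE, HIST3H2A, HIST1H3J and HIST1H2BN, which rose by 2.37, 2.14, 2.00 and 1.37 on the log2 scale, and HIST1H4E and HIST1H3H, given with their promoters. The levels at 30 min did not share 1 pattern: HIST1H4C held 3741 and 3912 CPM, HIST1H2AC 83.5 and 85.5 CPM, HIST1H3D 71.5 and 69.5 CPM and HIST1H2AM 201 and 169.7 CPM.

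The linker histones, which bind DNA between nucleosomes, had 5 of 7 members tested, of which 3 rose, 0 fell and 2 did not pass. Their median was 2.73, or 1.835 after thinning to equal depth. HIST1H1C rose from 48.4 and 38.9 CPM to 310.3 and 260.5 CPM (2.73, SE 0.22, adjusted p = 2.77e-10), and HIST1H1D from 2.36 and 4.95 CPM to 69.2 and 54.0 CPM (3.93, SE 0.44, adjusted p = 1.99e-07). HIST1H1E had no count at 5 min and 27 at 15 min, which makes it at least 6.77-fold higher when 3 counts over both cultures are taken as the floor (adjusted p = 0.0255, kept under 5 of the 10 alternatives in which it was tested). The replication-independent linker gene H1F0 had 20.1 and 24.7 CPM at 5 min and 49.1 and 30.1 CPM at 15 min, without a call (adjusted p = 0.322). Several histone genes are near-identical copies of each other, and counts of single histone genes are uncertain, since the handling of reads that match several copies was not given in the labels.

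Replacement histone variants, which are polyadenylated and made outside S phase, had 8 of 9 members tested, 1 of them higher and 0 lower, with a median of -0.01 (-0.14 to 0.05 over the alternatives). H3F3B, 1 of the genes for H3.3, rose from 636 and 702 CPM to 1029 and 1340.0 CPM (0.82, SE 0.19, adjusted p = 0.0167). H2AFZ, for H2A.Z, had 1277 and 1041 CPM at 5 min and 954 and 1305 CPM at 15 min, with overlapping cultures (adjusted p = 0.964). DNA replication genes (47 of 48 tested, median 0.04, 0.01 to 0.13 over the alternatives) and G2 and M phase genes (38 of 38 tested, median -0.08, -0.11 to 0.11 over the alternatives) had 0 members higher and 0 lower, near the shares of all genes.

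**Figure D3:**
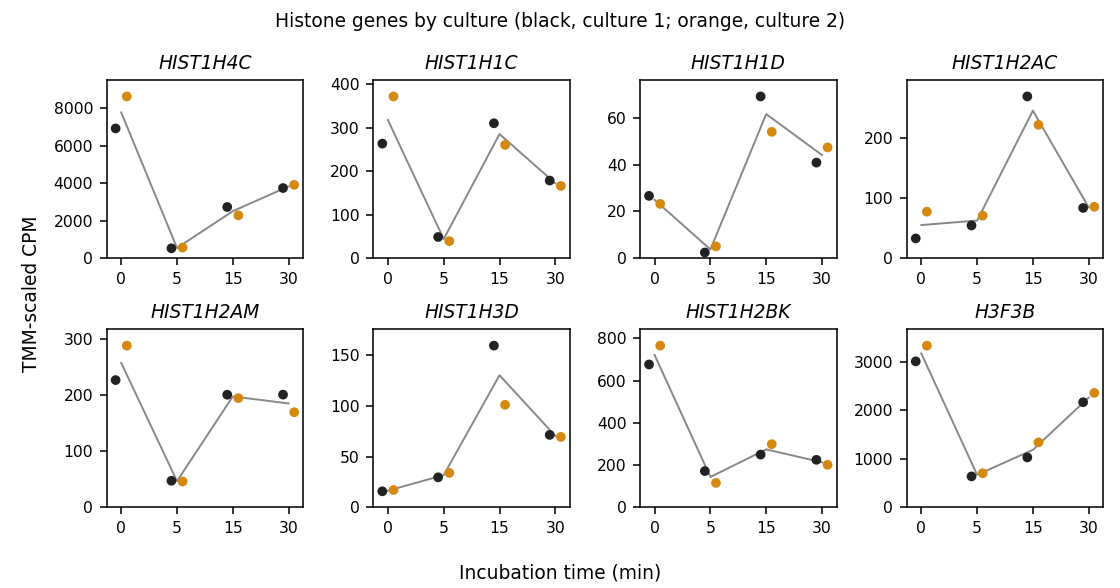
TMM-scaled CPM against incubation time for 7 replication-dependent histone genes and the replacement variant gene H3F3B, with 1 point per culture and a line through the mean of the 2 cultures. All 8 are higher in both 15 min cultures than in both 5 min cultures. HIST1H1C, HIST1H1D, HIST1H2AC, HIST1H3D and HIST1H2BK are lower in both 30 min cultures than in both 15 min cultures.

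The 150 bases before the start of 4 histone genes are shown to set them beside the immediate-early promoters. Capitals mark the same motifs and, in addition, an element known from H1 promoters, searched as AAACACA.
HIST1H1C (RefSeq H1-2), chr6:26056471-26056620, minus strand: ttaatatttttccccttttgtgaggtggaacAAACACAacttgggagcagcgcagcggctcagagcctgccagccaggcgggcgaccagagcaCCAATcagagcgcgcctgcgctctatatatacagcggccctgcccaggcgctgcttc
HIST1H1D (RefSeq H1-3), chr6:26234988-26235137, minus strand: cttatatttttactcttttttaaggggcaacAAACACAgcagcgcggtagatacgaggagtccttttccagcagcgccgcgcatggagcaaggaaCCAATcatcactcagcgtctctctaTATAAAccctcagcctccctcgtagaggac
HIST1H4E (RefSeq H4C5), chr6:26204460-26204609, plus strand: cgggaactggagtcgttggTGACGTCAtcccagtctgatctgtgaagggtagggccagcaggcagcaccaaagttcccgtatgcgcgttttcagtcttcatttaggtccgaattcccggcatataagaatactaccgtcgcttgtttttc
HIST1H3H (RefSeq H3C10), chr6:27809901-27810050, plus strand: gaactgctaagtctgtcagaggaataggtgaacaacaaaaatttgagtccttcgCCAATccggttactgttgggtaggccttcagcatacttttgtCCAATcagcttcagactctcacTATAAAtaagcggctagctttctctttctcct

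AAACACA stood at the same place in both linker histone windows, from 119 to 113 bases before the start, and was held by 2.77% of all promoters of the table. CCAAT stood from 57 to 53 bases before the start of HIST1H1C and from 55 to 51 before that of HIST1H1D, and HIST1H3H held it from 96 to 92 and from 54 to 50 bases before its start, against 24.4% of all promoters. HIST1H4E held TGACGTCA, which TGACG matches on both strands, and none of the other motifs searched. HIST1H4E rose from 4.72 and 5.65 CPM to 53.01 and 36.9 CPM (3.07, SE 0.50, adjusted p = 0.000249), and HIST1H3H from 2.36 and 3.53 CPM to 30.4 and 28.0 CPM (3.21, SE 0.57, adjusted p = 0.00077).

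Falling genes were of many kinds and fell by less. RAB23, a small GTPase that restrains Hedgehog signalling, fell from 98.0 and 57.2 CPM to 28.4 and 26.0 CPM (-1.48, SE 0.34, adjusted p = 0.0149). RYBP, a subunit of Polycomb repressive complex 1, fell from 61.4 and 31.8 CPM to 20.7 and 13.0 CPM (-1.41, SE 0.36, adjusted p = 0.0363), and SCML2, a Polycomb group protein, from 64.9 and 60.8 CPM to 25.2 and 26.0 CPM (-1.29, SE 0.32, adjusted p = 0.0254). SCAF8, which binds the tail of RNA polymerase II and curbs early polyadenylation, fell from 169.9 and 137 CPM to 75.6 and 49.2 CPM (-1.28, SE 0.24, adjusted p = 0.00181). The 5 min cultures of RAB23 and RYBP lay well apart from each other, and those of SCML2 close together. RYBP and SCML2 each kept their call under 8 of 13 alternatives.

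Of 18 tested members of the Polycomb repressive complex 1 list (19 genes), RYBP alone fell, where 0.517% of all genes did, and 0 rose. The list's median was 0.11 (0.01 without culture 2 at 5 min, 0.22 and 0.07 without culture 1 or 2 at 15 min). The RYBP paralog YAF2 had 103 and 126.5 CPM at 5 min and 91.2 and 82.7 CPM at 15 min (adjusted p = 0.483). RYBP stood at 66.7 and 60.3 CPM at 30 min, above both 15 min cultures, whereas RAB23 stood at 34.8 and 24.6 CPM and SCAF8 at 67.9 and 68.2 CPM, which overlap or lie near their 15 min levels.

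ROCK2, a kinase that acts on actin and myosin and also among the 15 largest decreases, fell from 179 and 135 CPM to 90.5 and 63.6 CPM (-1.01, SE 0.24, adjusted p = 0.0221). SMARCA5, the ATPase of ISWI chromatin remodellers, fell from 157 and 121 CPM to 72.4 and 64.3 CPM (-1.01, SE 0.23, adjusted p = 0.0155), and RAD23B, a DNA repair factor, from 315 and 216 CPM to 142 and 126.5 CPM (-0.97, SE 0.20, adjusted p = 0.00469). TICRR, which starts DNA replication, fell from 211 and 216 CPM to 122 and 99.8 CPM (-0.94, SE 0.20, adjusted p = 0.00543). The remaining members of the 15, DENND6A, SNX16, TMEM64, MIS18A, IPMK and IPO11, fell by 1.27, 1.20, 1.07, 1.06, 1.03 and 0.96 on the log2 scale. Their adjusted p-values from the same test were 0.0294, 0.0486, 0.036, 0.0357, 0.0486 and 0.0188. In that order, the calls held under 7, 5, 7, 4, 5 and 8 of 13 alternatives.

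Smaller decreases included EZH2, the methyltransferase of Polycomb repressive complex 2, from 336 and 333.5 CPM to 204 and 198 CPM (-0.73, SE 0.18, adjusted p = 0.0227), and ANKRD17, from 948 and 826 CPM to 575 and 514 CPM (-0.70, SE 0.17, adjusted p = 0.0256), both named after their values were seen. At 0 min EZH2 stood at 60.4 and 85.0 CPM and ANKRD17 at 95.5 and 80.3 CPM, below all cultures of 5, 15 and 30 min. Among hnRNP genes, which package nascent RNA, 23 of 26 were tested and HNRNPU alone fell, where 0.517% of all genes did. HNRNPU went from 379 and 345 CPM to 247 and 202 CPM (-0.69, SE 0.18, adjusted p = 0.0387), while the list's median was -0.06 (-0.13 to 0.01 over the alternatives).

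The cholesterol synthesis list had 24 of 29 members tested, 2 of them lower and 0 higher, with a median of -0.06 (-0.18 to -0.01 over the alternatives). MSMO1, a sterol methyl oxidase, fell from 176 and 158 CPM to 83.4 and 79.3 CPM (-1.03, SE 0.20, adjusted p = 0.00182). It kept its call under 12 of 13 alternatives, more than any other falling gene, and lost it without culture 2 at 15 min. SQLE, squalene epoxidase, fell from 561 and 559 CPM to 379 and 344 CPM (-0.63, SE 0.17, adjusted p = 0.049), and kept its call under 4. HMGCS1 had 196 and 227.5 CPM at 5 min and 147 and 129.9 CPM at 15 min without a call (adjusted p = 0.114), and IDI1 had 262 and 247 CPM and then 236 and 307 CPM (adjusted p = 0.886). At 30 min MSMO1 stood at 150.1 and 139 CPM and SQLE at 483 and 460 CPM, above both of their 15 min cultures.

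**Figure D4:**
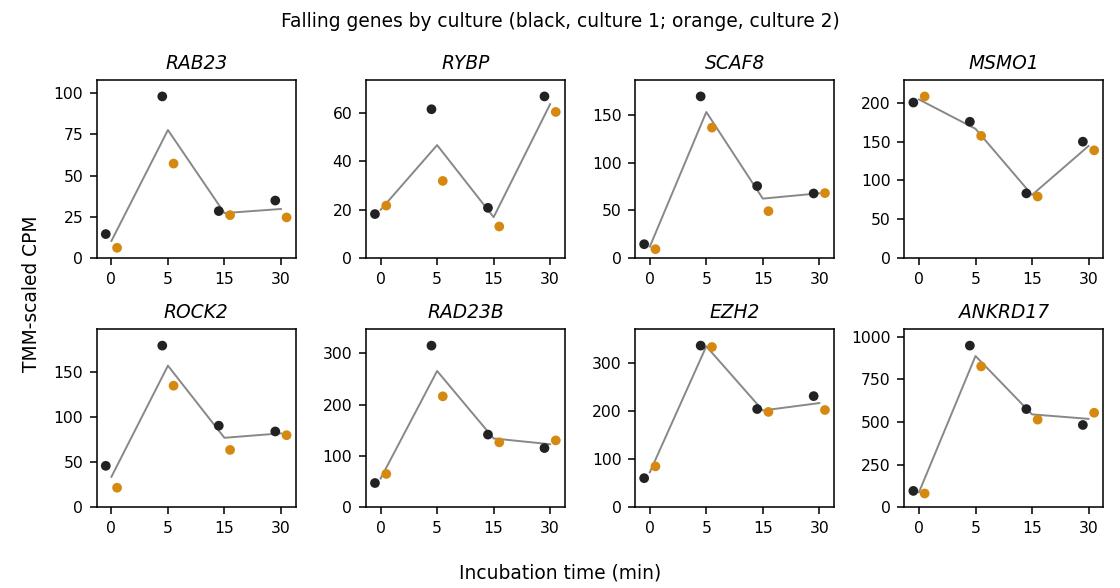
TMM-scaled CPM against incubation time for 8 falling genes, with 1 point per culture and a line through the mean of the 2 cultures. All 8 are lower in both 15 min cultures than in both 5 min cultures, and at 0 min all but MSMO1 are lower than at 5 min.

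The housekeeping lists held no called gene, where 1.03% of all genes were called higher and 0.517% lower, so that a count of 0 in lists of this size is near the background. All 83 cytosolic ribosomal protein genes were tested, with 0 higher, 0 lower and a median of -0.03, and their summed level was 115500 and 100600 CPM of the total at 5 min and 98050 and 116900 CPM at 15 min. The 2 times overlapped, while the same sum was 183600 and 205400 CPM at 0 min and 80590 and 74880 CPM at 30 min. The lists of mitochondrial ribosomal proteins (68 tested, median 0.01), nuclear respiratory chain genes (72 tested, median -0.01), proteasome subunits (30 tested, median -0.09), aminoacyl-tRNA synthetases (20 tested, median 0.07) and ribosome biogenesis genes (42 tested, median -0.00) also had 0 higher and 0 lower. The medians of these lists, ribosomal proteins included, lay between -0.19 and 0.19 under all 13 alternatives. No gene was called in the lists of elongation factors (16 tested), CLK kinases and L-type cyclins (9), SR splicing factors (11), translation factors with a 5′ pyrimidine tract (18), glycolysis enzymes (19), snoRNA host genes (8), nuclear noncoding RNAs (8), paraspeckle proteins (5), tubulins (13), RNA polymerase II subunits (11) and mitochondrially encoded mRNAs (11). GAPDH, a glycolytic enzyme, had 2040.0 and 1879 CPM at 5 min and 1634 and 2151 CPM at 15 min (adjusted p = 0.946), and MALAT1, a nuclear noncoding RNA, had 2431 and 1899 CPM and then 2305 and 2486 CPM (adjusted p = 0.801). Across all genes, 655 had an unadjusted p under 0.05 and a higher level at 15 min and 712 a lower level.

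The called genes differed in their length on the genome, a property the test did not use. Spans are from GENCODE 29 on GRCh38, matched by symbol, which gave a span for 91.4% of the genes tested. The 92 rising protein-coding genes had a median span of 5.65 kb and a median of 4 exons in the transcript with the most, and the 52 falling ones 94.8 kb and 15.5 exons, against 38.5 kb and 10 exons for all 9345 protein-coding genes tested. Under 10 kb lay 60 of the 92 rising genes and 0 of the 52 falling ones, against 1485 of all 9345.

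The class medians moved with span, while the range between the quartiles in each class straddled 0. With the 9345 genes cut into 5 classes of 1869 by span, the median log2 fold change went from 0.14 in the shortest class (0.207 to 12.6 kb) through 0.08, -0.02 and -0.14 to -0.19 in the longest (111 to 2300.0 kb). The quartiles were -0.12 and 0.55 in the shortest class and -0.42 and 0.11 in the longest. Between culture 1 at 15 min and culture 1 at 5 min the shortest class had a lower median (0.03) than the next (0.06). The classes held 62, 15, 5, 6 and 4 rising genes and 1, 3, 8, 18 and 22 falling genes in that order. Leaving out the histone genes left medians of 0.14 and -0.19 in the shortest and longest classes, with 50 rising genes in the shortest. Genes with 1 exon (141) had a median of 0.52, or 0.40 for the 123 that are not histone genes, and genes with 17 or more exons (2218) a median of -0.14.

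Across the 9345 genes, which share the same 4 cultures and are not independent replicates, the Spearman correlation between span and change was -0.26. The level moved with span as well: the median level was 24.2 CPM in the shortest class and 58.4 CPM in the longest, and its part in the result was not tested. Taken for each pair of cultures, the correlation ranged from -0.335 to -0.093 over the 4 pairs. The same measure between the 2 cultures of 15 min (culture 2 minus culture 1) was -0.172 and between those of 5 min 0.087, so that the correlation between the 15 min cultures was larger in size than in the weakest of the 4 pairs.

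**Figure D5:**
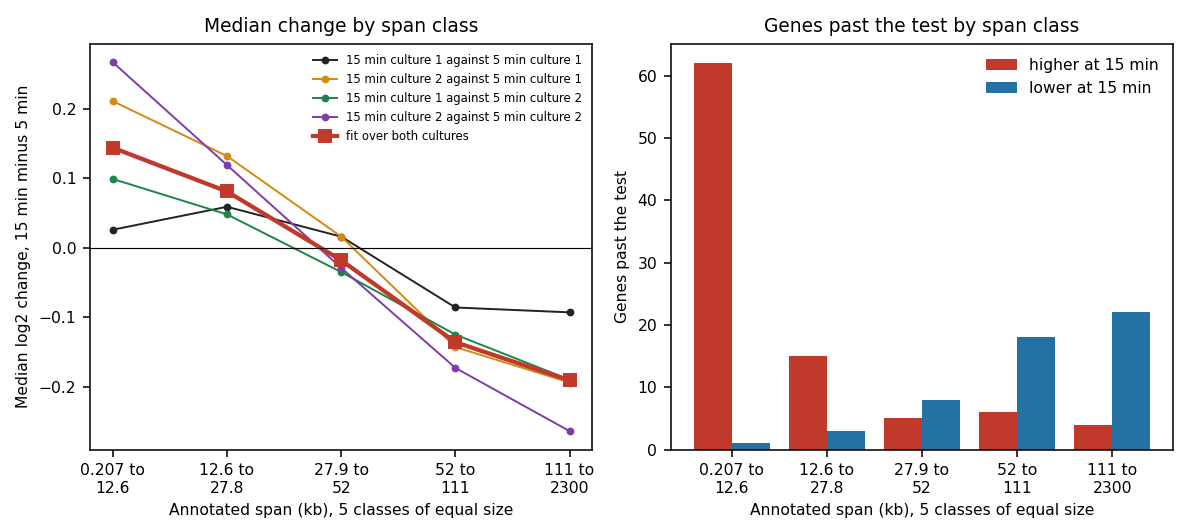
Left, the median log2 change from 5 to 15 min of 1869 protein-coding genes in each of 5 classes of annotated span, for each pair of cultures (log2 of TMM-scaled CPM plus 1) and for the fit over both. Right, the rising and falling genes in each class, from 62 rising and 1 falling in the shortest to 4 rising and 22 falling in the longest.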

How the data were processed

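Gene counts of HEK293 cells at 5 and 15 min were compared, with 0 and 30 min cultures in the same fit. The authors deposited whole-number counts for 32738 gene entries, aligned with STAR to hg19 per the submitters' processing notes. Whether reads or molecules were counted, and on which strand, was not given in the labels, so that overlapping and antisense genes cannot be told apart. Libraries of 1 cDNA agreed more closely than sampling noise allows (chi-square per degree of freedom 0.327 to 0.594 over 8 pairs), hence counting intervals are too narrow. Counts were summed per culture (188686 to 366040 per library) and tested with edgeR 4.0.16 in R 4.3.3 (TMM, filterByExpr, quasi-likelihood F test, two-sided, 4 residual degrees of freedom, Benjamini-Hochberg adjusted p under 0.05). An exact permutation test of 2 against 2 cannot go below p = 0.333 and was not used. On data simulated with the same spread for all genes, the test recovered 2.99% of 1.5-fold, 37.3% of 2-fold and 93.9% of 4-fold changes. Of its 93 calls there, 4 were false, a share that need not hold in the real data, where the spread can differ between genes. SE is the log2 fold change divided by the root of F. The text names the 15 largest increases and decreases past the test with a mean of 10 CPM or more and no overlap, and, among list members past the test and the 2 most abundant of each list, a part chosen with values known. Other names are marked as chosen after their values were seen, or stand for counts of the lists. Members and lists were chosen with earlier results of these data known. Alternatives were RLE or total-count scaling, no or a stricter filter (30 counts in 2 cultures), DESeq2 1.42.0, a replicate block, a fit of 4 cultures, thinning, 1 library per cDNA, and leaving out each culture. Promoters came from RefSeq (GRCh38.p14). Results of 2 genes that changed are not reported here.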

Additional observations from a re-analysis of the deposited data

How the results depend on the processing

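Of the 162 called genes, 0 changed sign under any of 13 alternatives, 35 of the 108 rising genes kept their call under all 13, and 0 of the 54 falling genes did. The fit of the 5 and 15 min cultures alone gave 195 higher and 122 lower, and DESeq2 gave 72 higher and 34 lower. Leaving out 1 culture gave 54 to 83 higher and 0 to 21 lower, and the lone culture of that time is then assumed to vary like the others. Without the low-count filter 151 were higher and 38 lower. The cause of these differences was not tested. Whether cultures with the same replicate number belong together is not known. The correlation of their deviations at 5 and 15 min was 0.014, which cannot settle it. With the replicate number as a block 103 genes were higher and 48 lower. The summed immediate-early difference of 967 CPM stayed between 873 and 1061 CPM, and the Spearman correlation with span was -0.258 with total counts. The median of all genes was 0.037 with total counts and -0.035 with RLE factors. NR4A1 and FOSB, which were not called, had 2 and 0 counts over both cultures at 5 min, and the part of depth in this was not tested. After thinning to equal depth 124 genes were higher and 55 lower.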
